A study of Mus musculus with 8 samples.

Results

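The genes examined here encode the signalling cascade of FcεRI, the high-affinity IgE receptor of mast cells. They are 39 of the 56748 gene IDs in the count tables and were listed by name as kinases, adapters, exchange factors, lipid enzymes, brakes, calcium channels and transcription factors that act downstream of the receptor. Bone marrow-derived mast cells (BMMCs) had been grown with IL-3 from the bone marrow of male and female C57BL/6 mice aged 6 to 8 weeks. In the Mettl3-RNP group (n = 4) the cells were electroporated with Cas9 ribonucleoproteins (RNPs) against Mettl3, the enzyme that places the N6-methyladenosine (m6A) mark on mRNA, and in the Pulsed group (n = 4) they were mock transfected and received no RNP. RNA was sequenced from resting cells, so the values describe the transcripts of the cascade before any antigen was given. The RNP cultures were not sorted and still held cells that had not been targeted, and the control carried no Cas9, so cutting as such and loss of Mettl3 cannot be told apart.

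When antigen crosslinks IgE on FcεRI, the Src family kinase Lyn phosphorylates the receptor's β and γ chains, and Syk docks there and phosphorylates the adapters Lat and Lcp2. On these adapters phospholipase Cγ is activated and releases calcium from stores, after which Stim1 opens the Orai1 channel and calcineurin sends NFAT factors to the nucleus to switch on cytokine genes. A parallel route through Fyn, Gab2 and PI3 kinase supports degranulation, and lipid and tyrosine phosphatases such as Inpp5d (SHIP-1) and Ptpn6 (SHP-1) limit both.

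A guide from the study's list for Mettl3 stands first below, as an example of the sites the study targeted, and it matched GRCm39 at chr14:52537803-52537822 on the plus strand, in exon 2 of 11 of Mettl3. Which of the listed guides was used for these libraries is not given in the sources used here. The other lines show, for the members that passed the test below, the m6A-type motif GGACT nearest to the stop codon of the canonical transcript, with 8 bases on either side, read on the mRNA strand from GRCm39. Capitals mark the PAM in the guide line and GGACT in the others.

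crRNA_Mettl3_1: cacgggactatcactacggaAGG

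Nfatc2: gatgtcctGGACTatggcctc

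Orai1: agctacccGGACTggatcggc

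Pik3cg: caaaggatGGACTgtgcagtt

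Pik3r5: cttctcctGGACTactcttcg

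The Nfatc2 stretch lies at chr2:168413477-168413497 on the minus strand, in coding sequence far upstream of the stop codon, at -2577 bases from its end. The Orai1 stretch is at chr5:123153477-123153497 on the plus strand, also coding, at -750 bases. In Pik3cg (chr12:32226635-32226655, minus strand) the motif stands in the coding sequence at -70 bases, and in Pik3r5 (chr11:68387115-68387135, plus strand) it stands in the 3′ UTR, 47 bases past the stop codon. Only the mRNA strand was searched, and a match is a string of letters, not a measured m6A site. Within 150 bases on either side of the stop codon's end, 15 of the 38 tested members (39.5%) held GGACT, against 3807 of 11269 tested protein-coding genes (33.8%).

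Total counts ranged from 32643260 to 45324826 per library. Mettl3 itself stood at 12.3, 9.18, 4.88 and 9.21 CPM, counts per 1000000 counts, in Mettl3-RNP libraries 1 to 4 and at 25.9, 24.5, 11.2 and 26.5 CPM in Pulsed libraries 1 to 4. It was lower in 4 of 4 pairs, at 40.5% of Pulsed (log2 fold change -1.30, SE 0.11, edgeR quasi-likelihood test, adjusted p = 0.00543), although Pulsed 3 lay below Mettl3-RNP 1. Of 12 mast cell markers, 10 were above 1 CPM in each library, while Mrgprb2 fell below it in 1 library and Mrgprb1 in 7, and the list had a summed level of 46100 to 62540 CPM in Mettl3-RNP and 49880 to 68260 CPM in Pulsed, and all 8 neutrophil markers stayed below 1 CPM. The basophil markers summed to 1795 to 2420 CPM in Mettl3-RNP against 2244 to 3323 CPM in Pulsed. Most of that sum came from Ifitm1 and Cd200r3. Mcpt8 averaged only 1.88 CPM in Mettl3-RNP and 2.56 in Pulsed, and Prss34 0.702 and 1.13 CPM. Of the 6 markers, 5 were lower in 4 of 4 pairs, 2 of them by the test, and Cd200r3 was higher in 4 of 4 pairs without passing. Among 8 macrophage markers only Cd68 and Adgre1 reached 1 CPM, with a sum of 5.06 to 29.3 CPM against 5.56 to 10.2 CPM. Adgre1 was lower by the test (1.18 ± 0.370 CPM against 2.53 ± 0.444), while the more abundant Cd68 averaged 16.7 ± 11.3 CPM against 4.50 ± 1.62 and did not pass (log2 fold change 1.63, 3 of 4 pairs higher, adjusted p = 0.142). The T cell, B cell and dendritic cell lists each summed to at most 21.2 CPM in any library, with H2-Ab1 lower by the test, and erythroid markers to 9.27 to 14.8 CPM against 15.7 to 29.1 CPM, with Car2 lower. Of 6 megakaryocyte markers only Itga2b reached 1 CPM, with a list sum of 1754 to 2122 CPM against 1598 to 1862 CPM. The summed level of 19 immediate early genes was 26700 and 22960 CPM in the libraries numbered 3, and 628 to 7087 CPM in the other 6. Of these 19 genes, 17 had fitted values higher in Mettl3-RNP and 2 lower, and 0 passed the test. Egr1 and Klf2 were higher in 4 of 4 pairs, and 0 of the 19 were lower in 4 of 4. The part of other cells or of this early gene state in the results on the cascade was not tested.

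All members but Fgr were expressed at a level that could be tested, and 4 of them rose in Mettl3-RNP. Of the 39 members, 38 were tested, and 27 averaged 100 CPM or more. Together they took 0.822% to 1.09% of the counts of a library. Of the 38, 4 were higher in Mettl3-RNP and 0 lower at an adjusted p of 0.05 or less, or 10.5% of them, while 3.74% of all 14942 tested genes passed (2.35% higher, 1.39% lower). At a mean of 20 CPM or more, 3 of 37 members passed (8.11%), as did 4.89% of all tested genes at that level (3.23% higher). Those that rose were the calcium channel gene Orai1, the transcription factor gene Nfatc2, and the catalytic and regulatory PI3 kinase γ genes Pik3cg and Pik3r5. Only Pik3r5 also passed a fold change of 1.5, a limit that 2.06% of all tested genes passed (1.24% higher and 0.816% lower).

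Most of the other members moved by small amounts. Ptpn6 (-0.45), Dok2 (0.42) and Fyn (0.39) moved further on the log2 scale than Pik3cg (0.35), though they did not pass. The median log2 fold change of the 38 was 0.0707, against -0.0013 for all tested genes, and with no filter on low counts it was 0.0714 against 0.0636. In the filtered fit, 30 of the 38 fitted changes were within 1.2-fold in either direction. In 21 of the 38 the 4 pairs went in the same direction, as they did in 31.6% of all tested genes. In 16 of these (42.1% of the 38) the RNP library was the higher one, which held for 15.7% of all tested genes, and in 5 (Lyn, Ptprc, Lat, Ptpn6 and Ptpn11) it was the lower one, which held for 2385 of the 14942. In none of the 38 did the groups separate without overlap, which 3.23% of all tested genes did. At an unadjusted p under 0.05 there were 14 of the 38 members, against 22.5% of all tested genes. The shares of all tested genes in this paragraph were not matched for level, and the members had a median of 165.7 CPM against 15.95 CPM. The 95% intervals reached a median of 0.18 to either side on the log2 scale.

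**Figure D1:**
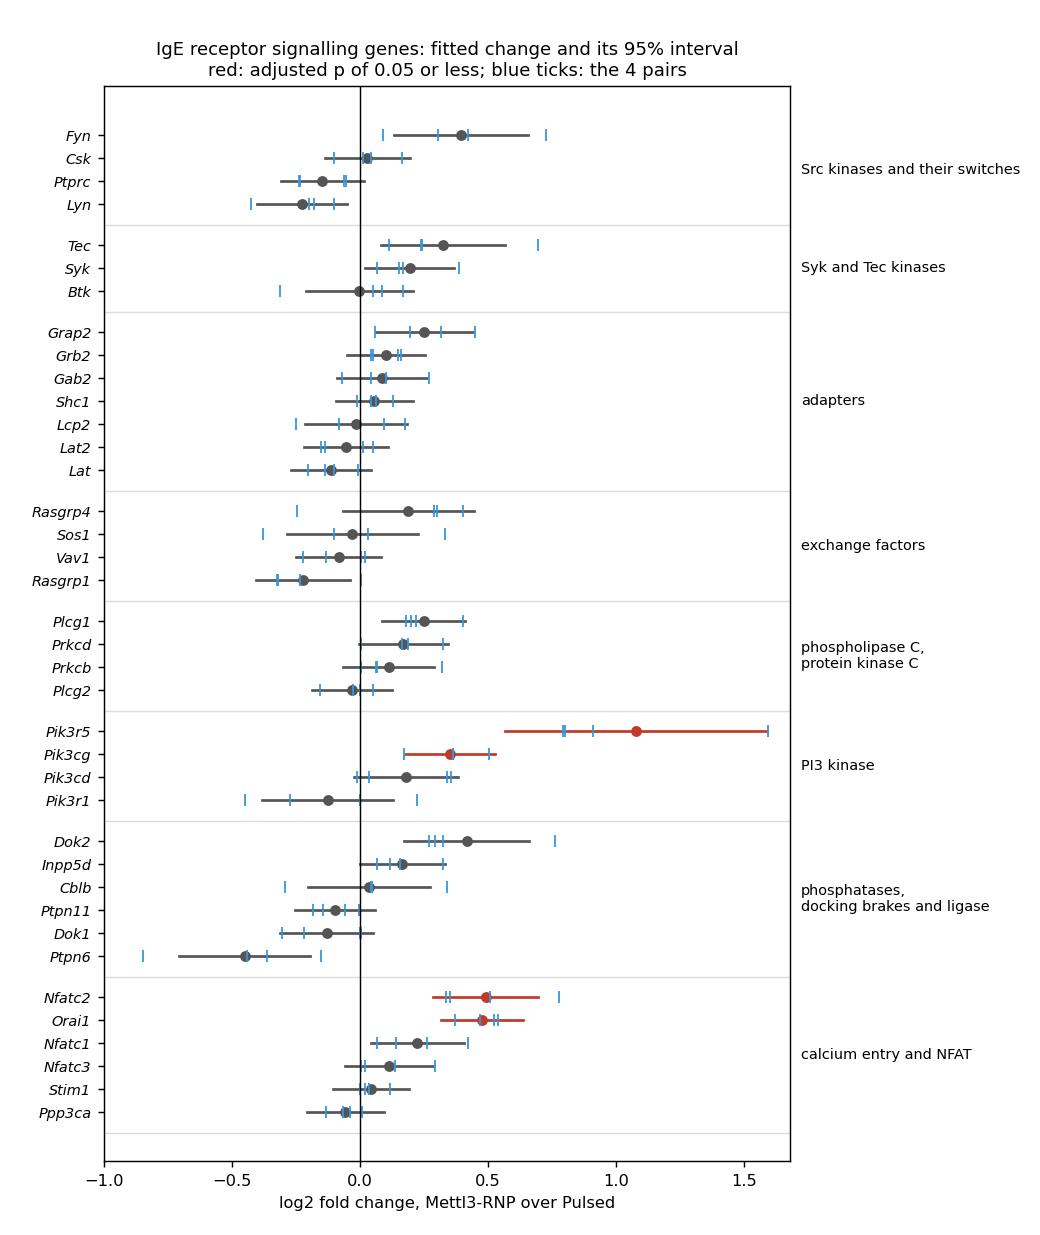
Fitted log2 fold change of each tested member, Mettl3-RNP over Pulsed (x axis), with members grouped by role on the y axis; dots are the fit, bars its 95% interval, blue ticks the 4 pair differences, and red marks an adjusted p of 0.05 or less. Most dots sit close to 0, and the 4 red dots (Pik3r5, Nfatc2, Orai1 and Pik3cg) have all their pair ticks to the right of it. They share this with other members, 16 in all.

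The receptor subunits, which are not among the 39, did not pass the test. Fcer1a, the IgE-binding α chain, averaged 2602 ± 164 CPM (SD, n = 4) in Pulsed and 2892 ± 396 in Mettl3-RNP. Ms4a2, the β chain, averaged 1608 ± 391 and 1598 ± 423 CPM, and Fcer1g, the γ chain that other Fc receptors share, 568 ± 76.9 and 509 ± 97.5 CPM. Fcer1g was the lower one in 4 of 4 RNP libraries by a log2 fold change of -0.17 (adjusted p = 0.204).

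Among the Src kinases and their switches, 0 of 4 tested genes passed. Lyn, which phosphorylates the receptor chains, had 221, 203, 191 and 188 CPM in Mettl3-RNP 1 to 4 and 254, 273, 205 and 213 CPM in Pulsed 1 to 4. Each RNP library was below its Pulsed partner, yet the groups overlapped, and the log2 fold change of -0.23 (SE 0.08) did not pass (adjusted p = 0.128). Fyn, which starts the Gab2 route, had 10.6, 24.9, 32.3 and 27.0 CPM in Mettl3-RNP and 9.93, 15.01, 24.1 and 21.9 CPM in Pulsed. It went the other way in each pair, with the smallest difference in pair 1, where both libraries were low, and its log2 fold change was 0.39 (SE 0.11, adjusted p = 0.0931). Csk, which phosphorylates the inhibitory tyrosine of Src kinases, and Ptprc (CD45), which removes that phosphate, had log2 fold changes of 0.03 and -0.15 (adjusted p = 0.856 and 0.265).

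Fgr, another Src family kinase, was the member that could not be tested. It had 9 counts in Pulsed 1, 1 count in Mettl3-RNP 2 and 0 counts in the other 6 libraries, where a count of 0 allows up to 3 counts, or 0.0746 to 0.1003 CPM, for counting error alone.

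Syk, the kinase that docks on the γ chain, had 131, 130, 158 and 161 CPM in Mettl3-RNP and 125, 117, 121 and 143 CPM in Pulsed. It was the higher one in each RNP library and differed by a log2 fold change of 0.19 (SE 0.08, adjusted p = 0.182), with a 95% interval from 0.02 to 0.37. Of the Tec family kinases, which help to activate phospholipase Cγ, Tec was higher in 4 of 4 pairs but did not pass the test (30.9 ± 2.40 CPM in Pulsed, 39.04 ± 7.43 in Mettl3-RNP, log2 fold change 0.32, adjusted p = 0.121). Btk stood at a log2 fold change of -0.0027 (95% interval -0.21 to 0.21) on means of 328 and 322 CPM, and its sign turned with the scaling of the libraries.

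None of the 7 adapters passed. Lat, the membrane scaffold that Syk phosphorylates, had 255, 200, 220 and 195 CPM in Mettl3-RNP and 294, 220, 236 and 197 CPM in Pulsed. Each RNP library was slightly lower, by a log2 fold change of -0.11 (SE 0.07, adjusted p = 0.373). Gab2, the docking protein that carries PI3 kinase, had 287, 286, 383 and 284 CPM in Mettl3-RNP and 267, 277, 403 and 236 CPM in Pulsed. The libraries numbered 3 were the high ones in both groups, and the log2 fold change was 0.09 (SE 0.08, adjusted p = 0.570). Grap2 (GADS), which joins Lat to Lcp2, had a fitted log2 fold change of 0.25 (adjusted p = 0.124). Lat2 (NTAL), a relative of Lat, Lcp2 (SLP-76), Grb2 and Shc1 stayed between -0.06 and 0.10 on the log2 scale.

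For 0 of 4 exchange factors did the groups differ by the test. Rasgrp1 and Rasgrp4, which answer to diacylglycerol and load Ras with GTP, had log2 fold changes of opposite sign, -0.22 (adjusted p = 0.148) and 0.19 (adjusted p = 0.367). Sos1, which reaches Ras through Grb2, had -0.03 and Vav1, which acts on Rac, -0.08.

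Phospholipase Cγ and protein kinase C genes were tested as a group of 4, of which 0 passed. Plcg1 had 383, 369, 249 and 480 CPM in Mettl3-RNP and 333, 326, 214 and 364 CPM in Pulsed. It was higher in 4 of 4 pairs, with the largest step in pair 4, and had a log2 fold change of 0.25 (SE 0.07, adjusted p = 0.0886). Plcg2, the second isoenzyme, had 136, 101, 103 and 120 CPM in Mettl3-RNP and 131, 112, 105 and 120 CPM in Pulsed. Its groups were nearly level, at a log2 fold change of -0.03 (SE 0.07), with a 95% interval from -0.19 to 0.12. Prkcd and Prkcb, protein kinase C isoforms that respond to the diacylglycerol made by phospholipase C, had fitted log2 fold changes of 0.17 and 0.11 (adjusted p = 0.231 and 0.446), with 1 pair of each close to 0.

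The PI3 kinase genes held 2 of the 4 members that rose. Pik3cg encodes p110γ, the catalytic subunit driven by G-protein coupled receptors, and spans chr12:32223472-32258659. It had 289, 324, 247 and 324 CPM in Mettl3-RNP 1 to 4 and 257, 252, 174 and 252 CPM in Pulsed 1 to 4. Each RNP library was above its partner and the groups overlapped only through Mettl3-RNP 3, whose partner, Pulsed 3, was the lowest library of all. The log2 fold change was 0.35 (SE 0.08, 1.28-fold, adjusted p = 0.0489), and the adjusted p was between 0.101 and 0.212 with any pair left out.

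Pik3r5 encodes p101, a regulatory subunit that binds p110γ, and spans chr11:68322939-68388675. It was a rare transcript, at 6.76, 2.06, 0.602 and 4.16 CPM in Mettl3-RNP and 3.88, 1.07, 0.323 and 1.34 CPM in Pulsed, from 251 down to 13 counts. Levels differed more between replicate numbers than between groups, and each RNP library was the higher of its pair. The log2 fold change was 1.08 (SE 0.22, 2.11-fold, 95% interval 1.48-fold to 3.01-fold, adjusted p = 0.0423), with an adjusted p between 0.0574 and 0.145 when any pair was left out. Pik3r6, a pathway gene outside the 39 that encodes p84, the alternative partner of p110γ, rose as well, from 53.4 ± 13.3 to 66.6 ± 16.6 CPM (log2 fold change 0.32, SE 0.06, adjusted p = 0.0386), but did not pass with any pair left out.

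The class IA subunits did not follow in the test. Pik3cd (p110δ), which FcεRI uses through its regulatory partner, averaged 821 ± 35.2 CPM in Pulsed and 934 ± 115 in Mettl3-RNP (log2 fold change 0.18, adjusted p = 0.275). Pik3r1 (p85α) had 150 ± 31.6 and 135 ± 2.40 CPM (log2 fold change -0.13, adjusted p = 0.561).

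The brakes of the cascade split in sign, and 0 of 6 passed. Inpp5d (SHIP-1), which removes the lipid that PI3 kinase makes, had 927, 846, 614 and 956 CPM in Mettl3-RNP and 854, 760, 587 and 765 CPM in Pulsed. It was higher in 4 of 4 pairs by small steps, with a log2 fold change of 0.16 (SE 0.07, adjusted p = 0.228). Ptpn6 (SHP-1), a tyrosine phosphatase, averaged 452 ± 212 CPM in Pulsed and 328 ± 144 in Mettl3-RNP. It had the lowest fitted change of all members, -0.45 (SE 0.11, lower in 4 of 4 pairs, adjusted p = 0.0665). Its relative Ptpn11 (SHP-2) had -0.10 (adjusted p = 0.441). The docking proteins Dok2 and Dok1, which recruit Ras inhibitors, had 0.42 (adjusted p = 0.0701) and -0.13 (adjusted p = 0.382), and the ubiquitin ligase gene Cblb had 0.03.

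Calcium entry and NFAT genes held the other 2 members that rose, of 6. Orai1 encodes the pore of the store-operated calcium channel and spans chr5:123153043-123168535. It had 46.5, 57.0, 38.2 and 47.5 CPM in Mettl3-RNP 1 to 4 and 33.6, 39.6, 29.6 and 32.8 CPM in Pulsed 1 to 4. Each RNP library was higher by a similar step, and the groups overlapped only because Mettl3-RNP 3 lay below Pulsed 2. The log2 fold change was 0.48 (SE 0.07, 1.39-fold, 95% interval 1.24-fold to 1.56-fold), with the smallest adjusted p of the members, 0.0191. It still passed without pair 3 (adjusted p = 0.0279) and no longer passed without pair 1, 2 or 4 (adjusted p = 0.0772, 0.105 and 0.0720).

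Nfatc2 encodes the transcription factor NFAT1 and spans chr2:168318330-168443693. It had 126, 150, 70.5 and 131 CPM in Mettl3-RNP and 100.03, 106, 41.1 and 102 CPM in Pulsed. The libraries numbered 3 were low in both groups, and the step within that pair was the largest of the 4. The log2 fold change was 0.49 (SE 0.09, 1.41-fold, adjusted p = 0.0319), and the adjusted p was between 0.0504 and 0.136 with any pair left out.

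The other calcium and NFAT members did not pass. Stim1, the calcium sensor that opens Orai1, had a log2 fold change of 0.04 (95% interval -0.11 to 0.19), and Ppp3ca, a catalytic subunit of calcineurin, had -0.06 (95% interval -0.21 to 0.09). Nfatc1 had 0.22 (adjusted p = 0.144) and Nfatc3 0.11 (adjusted p = 0.428), each higher in 4 of 4 pairs.

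**Figure D2:**
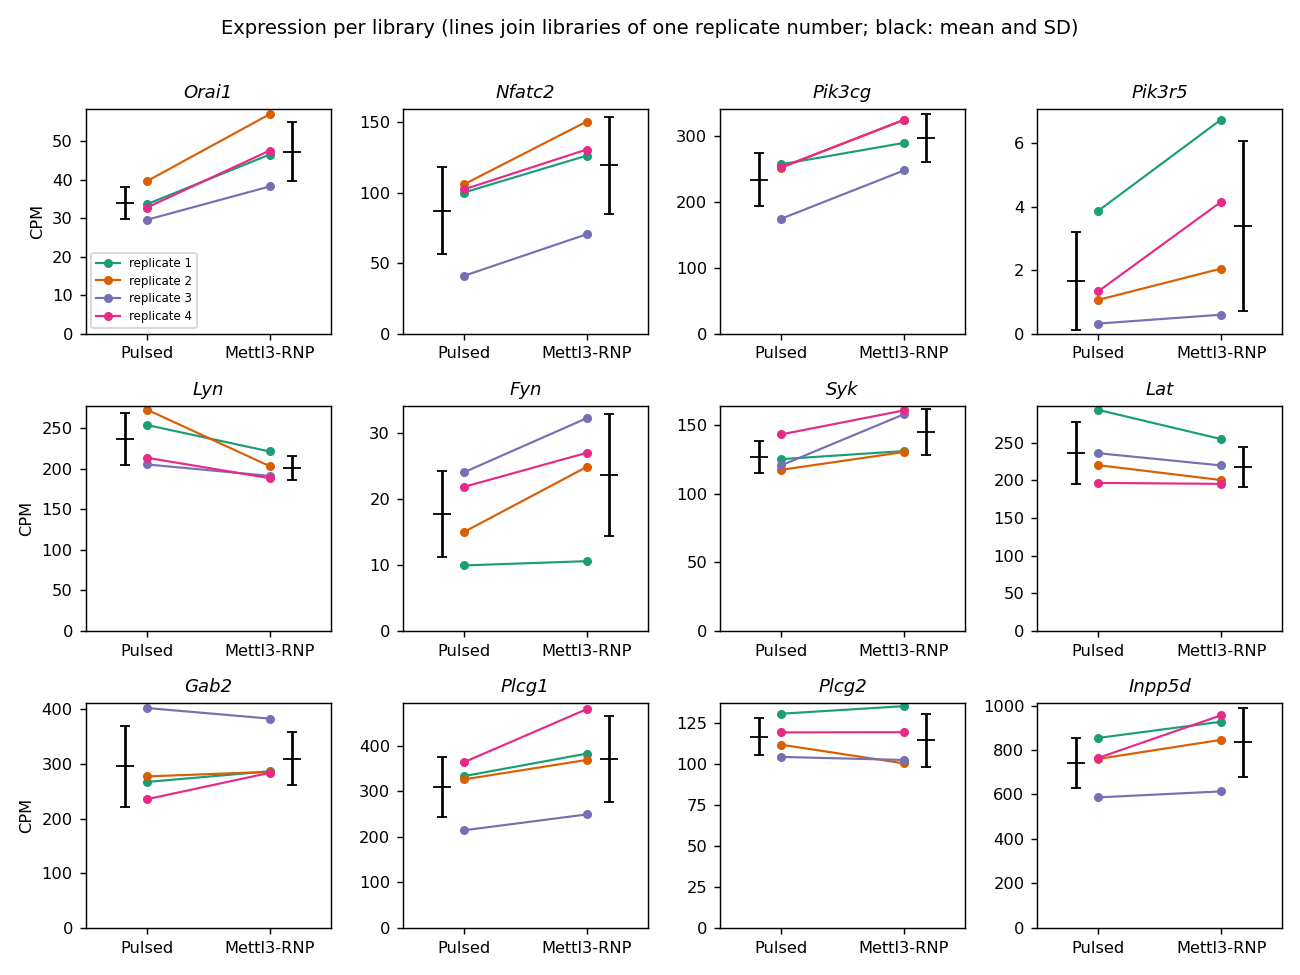
CPM (y axis, from 0) of the 4 members that passed the test (top row) and of 8 proximal members, in Pulsed and Mettl3-RNP (x axis); lines join libraries of the same replicate number, and black bars show mean and SD (n = 4). In the top row every line goes up, from 29.6 to 38.2 CPM for the lowest Orai1 pair. So does every line of Fyn, Syk, Plcg1 and Inpp5d, while Lat and Lyn slope down and Plcg2 and Gab2 have lines in both directions.

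Compared per length, as CPM per kb of exons, the members spanned a wide range of levels. Lat2 was the most abundant, at a mean of 227 CPM per kb in Pulsed, followed by Lcp2 (165), Ptpn6 (153) and Btk (104). With the longest transcript as the length Lat2 and Lcp2 still led, at 300.3 and 200.2 CPM per kb in Pulsed, but over all 8 libraries Inpp5d and Prkcb came before Ptpn6 and Btk. By exon length the receptor-proximal kinases stood at 49.5 CPM per kb for Lyn, 12.7 for Syk and 1.53 for Fyn in Pulsed. At the bottom were Cblb (3.09), Fyn, Pik3r5 (0.252) and Fgr. The ranges over the 8 libraries of neighbours in this order overlapped for all 38 neighbouring pairs. Within libraries, 5 neighbours were in the same order in all 8, Grb2 over Gab2, Nfatc1 over Ptprc, Grap2 over Cblb, Cblb over Fyn and Pik3r5 over Fgr, and the other 33 changed order in at least 1 library.

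**Figure D3:**
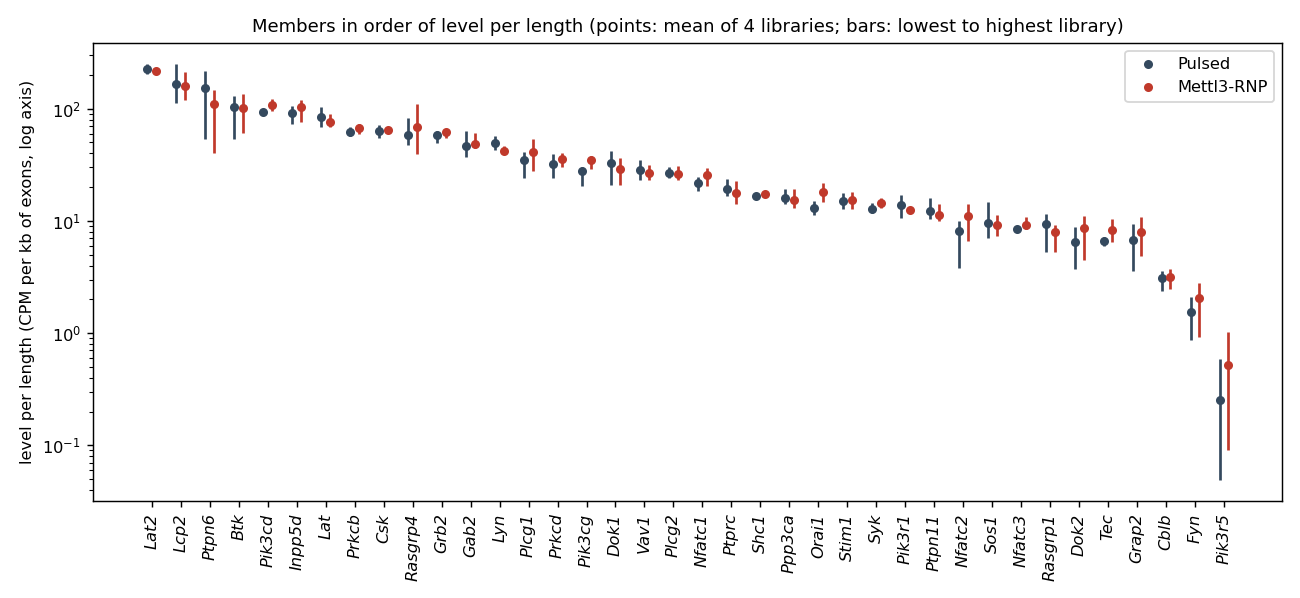
Level per length (CPM per kb of exons, log axis) of the 38 tested members, from the most to the least abundant; points are means of 4 libraries, bars run from the lowest to the highest library, and colours mark the groups. Levels fall from about 227 for Lat2 to 0.252 for Pik3r5 in Pulsed, and the 2 groups overlap for each member.

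Ratios between related members, taken per length in each library, showed how far 1 relative exceeded the other. For 14 pairs of relatives the ratio was compared between the groups by flipping the signs of the 4 pair differences (exact permutation test, two-sided), whose smallest p is 0.125 (0.219 adjusted over the 14), so no ratio could pass. The ratio of Lyn to Fgr could not be formed, since Fgr was at 0 in 6 libraries. Lyn exceeded Fyn in each library, 33.9-fold in Pulsed and 22.2-fold in Mettl3-RNP, a log2 difference of -0.61 ± 0.37 (SD, n = 4). The Orai1 to Stim1 ratio went from 0.872 to 1.18, a log2 difference of 0.43 ± 0.12 with 4 of 4 pairs higher. The Plcg2 to Plcg1 ratio went from 0.786 to 0.647 (log2 difference -0.28 ± 0.11), and that of Nfatc3 to Nfatc2 from 1.11 to 0.850 (-0.38 ± 0.14), each lower in 4 of 4 pairs. The Pik3r5 to Pik3r1 ratio was higher in 4 of 4, by 1.19 ± 0.27 on the log2 scale. These ratios depend on the gene length used, though their differences between groups do not. With the longest transcript as the length, Orai1 to Stim1 was 0.470 in Pulsed and 0.635 in Mettl3-RNP, below 1 in both, Nfatc3 to Nfatc2 was 1.64 and 1.26, above 1 on average in both, Plcg2 to Plcg1 was 0.485 and 0.399, and Lyn to Fyn was 22.5 and 14.7. The ratios of Lat to Lat2 (-0.06 ± 0.05) and Prkcd to Prkcb (0.06 ± 0.21) had mean differences near 0.

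Most of the variation of the members followed the replicate number and not the group. A median of 83.8% of a member's sum of squares of log2 CPM lay between replicate numbers and 9.61% between groups, and in 31 of 38 members the replicates took over 50%. For all tested genes these medians were 78.3% and 5.68%. There are more replicate numbers than groups, so they take up a larger share even without any effect, and the shares are not on equal terms. Orai1 was an exception, with 35.1% between replicates and 63.7% between groups. For 13 members both libraries numbered 3 were below each of the other 6 libraries, and for 6 both were above.

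The 13 that were low in replicate 3 came from most roles, and included the 3 members Nfatc2, Pik3cg and Pik3r5 that rose in Mettl3-RNP. As a fold of the other pairs, Ptpn6 was 0.297 in replicate 3, Btk 0.487, Nfatc2 0.457, Plcg1 0.620, Pik3cg 0.739 and Pik3r5 0.185. The high ones were Lcp2 (1.69), Sos1 (1.57), Gab2 (1.44), Ptpn11 (1.42), Ppp3ca (1.35) and Grb2 (1.12). These are the libraries with the high immediate early gene sum given above, and also those with the lowest Mettl3 in each group. In replicate 1, 8 members were above and 5 below all other libraries, with Rasgrp4 at 1.84 and Fyn at 0.436 times the other pairs.

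**Figure D4:**
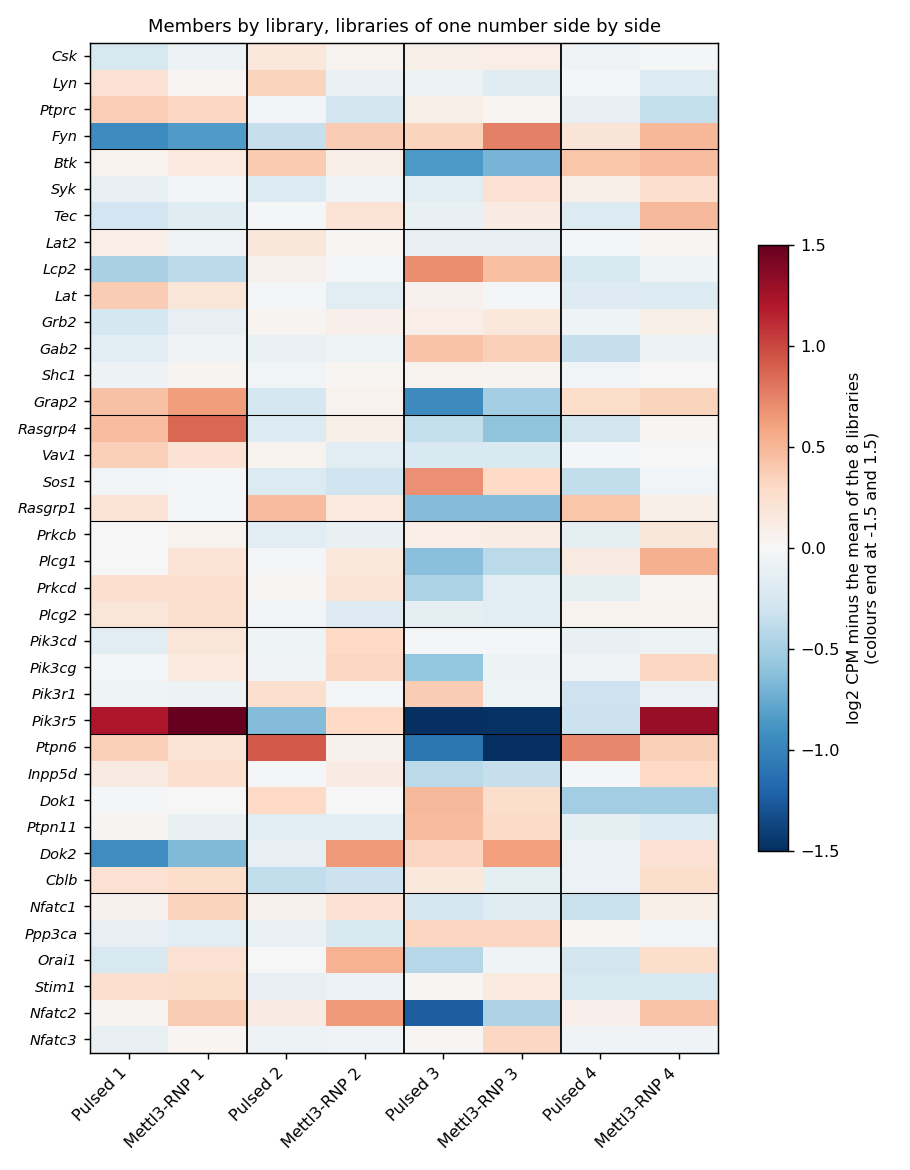
Log2 CPM of each tested member minus its mean over the 8 libraries (colour, ending at -1.5 and 1.5), with members by role as rows and libraries as columns, the 2 libraries of each replicate number side by side. Colours agree within replicate numbers more than within groups, as for Ptpn6, Btk and Nfatc2, which are blue in both libraries numbered 3.

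Genes of the same pathway that are not among the 39 were counted in the same fit. Of 99 such genes, 91 were tested and 5 passed (5.495%), and the 4 that rose are given here. Nck1, an adapter to the actin cytoskeleton, rose from 28.5 ± 6.96 to 49.5 ± 14.97 CPM (0.78, adjusted p = 0.0111), and Sh3bp2 (3BP2), an adapter bound by Syk, from 26.2 ± 10.3 to 39.7 ± 12.6 CPM (0.62, adjusted p = 0.0250). Dok3, a relative of Dok1 and Dok2, rose from 134 ± 13.0 to 180 ± 13.4 CPM (0.43, adjusted p = 0.0207), and Pik3r6 was given above. With pair 2 left out 0 of the 93 then tested passed, while Nck1 and Sh3bp2 passed with pair 1, 3 or 4 left out. Dok3 passed only without pair 3, and Pik3r6 in none of these 4 fits.

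None of the 15 tested protein kinase C and MAP kinase genes in that list passed, nor did any of its 15 exchange factors and small GTPases or its 16 calcium and NFAT genes. Markers of other cells moved beside these results. In Mettl3-RNP the mast cell protease gene Cpa3 was lower (30430 ± 7703 CPM in Pulsed, 23270 ± 4921 in Mettl3-RNP, adjusted p = 0.0328), and so were the basophil-list genes Il18rap (51.3 ± 11.2 and 29.5 ± 5.01 CPM, adjusted p = 0.0324) and Ifitm1 (2098 ± 408 and 1389 ± 277 CPM, adjusted p = 0.0471). The other genes of these lists did not pass. Of the 11 mast cell markers tested, 6 had fitted values above 0 and 5 below, with Mitf (0.30, adjusted p = 0.0709) and Il1rl1 (0.24, adjusted p = 0.118) higher in 4 of 4 pairs, as was Cd200r3 in the basophil list (572 ± 58.1 CPM in Pulsed, 688 ± 134 in Mettl3-RNP, adjusted p = 0.151). Mrgprb2 had the largest fitted change of the mast cell list, -1.58 (lower in 3 of 4 pairs, adjusted p = 0.081). It averaged 7.05 ± 8.90 CPM in Pulsed and 1.88 ± 1.46 in Mettl3-RNP. In bulk RNA, fewer cells of a type and less RNA per cell cannot be told apart.

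The choice of fit decided how many members passed. Without the replicate block 0 members and 0 of all tested genes (0%) passed, with 1 member and 579 genes at an unadjusted p under 0.05. A DESeq2 Wald test with the replicate as a term called 8 members among 1449 genes (9.70%), adding Dok2, Fyn, Plcg1 and, as the lower one, Ptpn6. Removing the replicate effect from log CPM first and then testing the groups alone called 19 members among 4564 genes (30.5%), a procedure that does not count the replicate terms it has spent. The same 4 members passed under limma-voom (4.30% of all genes), DESeq2 size factors (3.85%) and library size alone (3.98%). With no filter 4 passed, with Ptpn6 in place of Pik3cg (2.95%), and with at least 10 counts in every library 5 passed, Ptpn6 being the addition (7.67%). With a pair left out, 0 members passed without pair 1 (2.18%), pair 2 (0.174%) or pair 4 (2.23%), and only Orai1 passed without pair 3 (2.57%). Over the fits that left out a pair, the log2 fold change was between 0.44 and 0.51 for Orai1, 0.40 and 0.55 for Nfatc2, 0.30 and 0.37 for Pik3cg, and 0.88 and 1.14 for Pik3r5. Members that had not passed could move more, such as Rasgrp4 between 0.08 and 0.33 and Pik3r1 between -0.23 and -0.02, and 7 of them changed sign in at least 1 of these fits.

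**Figure D5:**
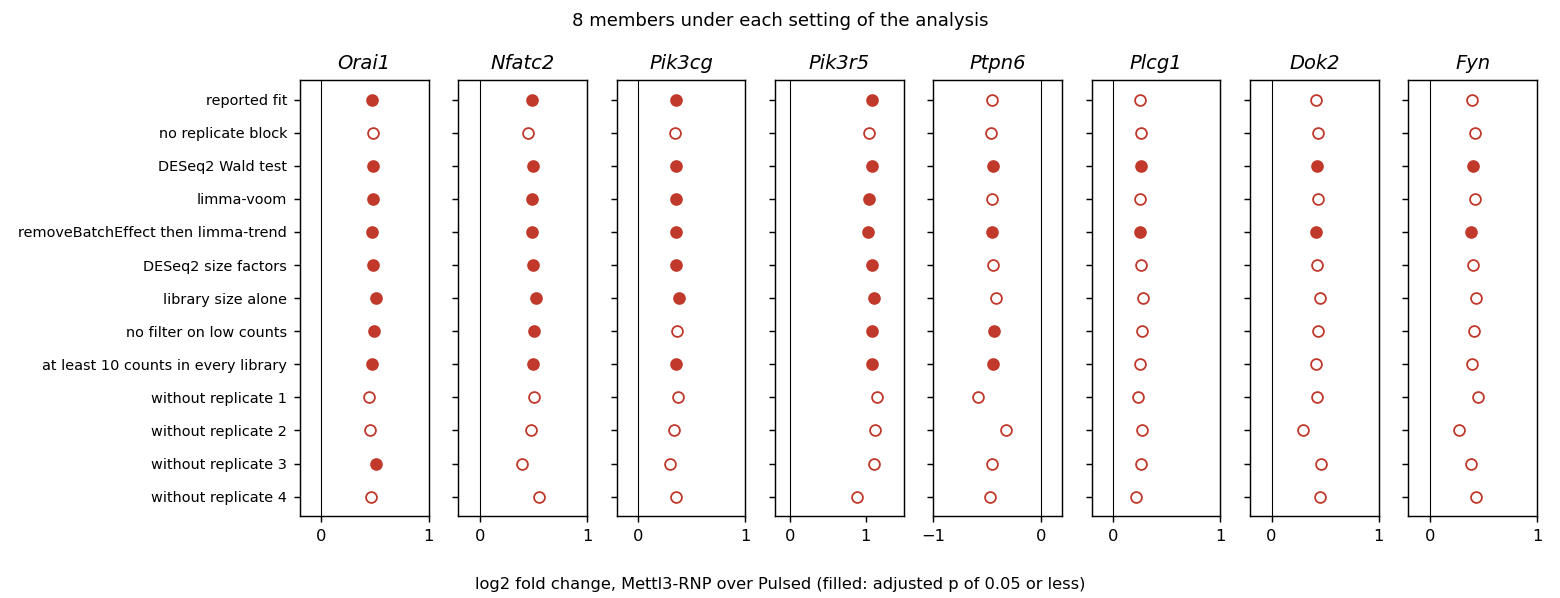
Log2 fold change (x axis, Mettl3-RNP over Pulsed) of 8 members under each setting of the analysis (rows); filled dots have an adjusted p of 0.05 or less. The dots of a member keep their sign. With a pair left out, those of Orai1 lie between 0.44 and 0.51 and those of Ptpn6 between -0.59 and -0.32. The filling changes: it is lost without the replicate block and, except for Orai1 without pair 3, with any pair left out. For 4 more members it appears under DESeq2.

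In the annotation 22 of the 39 members overlap an exon of a gene on the opposite strand, and for 11 of these a partner is in the count tables. Strand settings of the counting are not given in the sources used here. For Orai1 the partner Gm2479 had at most 8 counts, against at least 1143 for Orai1, whereas Lat2 shares exon sequence with Rfc2, which had up to 10027 counts.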

How the data were processed

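Poly-A RNA of resting BMMCs was sequenced in 8 libraries, 4 per group, by the labels. Per the labels and the study's methods, the authors aligned paired reads to GRCm39 with HISAT2 2.2.1 and made counts per Ensembl gene with featureCounts 2.0.1 after FastQC 0.11.9; the deposited values are raw counts, not normalized. The study's batch correction (removeBatchEffect, batch not named) is not in these counts. Strand and multimapping settings are not given in the sources used here. GENCODE release M39 (GRCm39) named 56017 of 56748 IDs and gave positions and exon lengths.

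Genes were kept by filterByExpr of edgeR 4.0.16 (R 4.3.3), libraries were scaled by TMM, and the quasi-likelihood test with the replicate number as a block was fitted on all 14942 genes, with Benjamini-Hochberg adjustment over all of them. CPM use TMM library sizes, and levels per length divide CPM by the kb of the union of exons. SE were derived from the test statistic. The series text names 4 mice for 8 libraries without tying mice to numbers; same-numbered libraries deviated together (r = 0.825, 0.489, 0.879 and 0.765 over 11985 genes, other combinations at most 0.183), so the numbers were treated as pairs. Scripts were tested on simulated data. Values are given per library for members that passed, for Lyn, Syk, Fyn, Lat, Gab2, Plcg1, Plcg2 and Inpp5d and for members not expressed; other members are given by level and fold change, and other pathway genes where they passed, except 1 that is not reported here. Members, lists and rules were chosen with earlier results of these data known. Limits for counts of 0 cover counting error only, and p-values measure the spread between these pairs of cultures. Alternatives were no block, DESeq2 1.42.0, limma 3.58.1 (voom, and removeBatchEffect then trend), other scalings and filters, each pair left out, and another gene length.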

Additional observations from a re-analysis of the deposited data

Results flagged for a closer look

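In groups of 4 libraries, a library was looked at again when its gap to the nearest other one took up nearly the whole range of the group (Dixon's test at its 95% limit). Of 94 groups, from 47 genes, 6 held such a library, and chance gives about 1 in 20 groups, or 4.7. Of these 6, 5 were libraries numbered 3. Rasgrp4 was at 526.9 CPM in Pulsed 1, against 300.2 to 333 CPM in the other Pulsed libraries. Gab2 was at 383 CPM in Mettl3-RNP 3, against 284 to 287 CPM in the others of its group. Pik3cg was at 174 CPM in Pulsed 3, against 252 to 257 CPM. Ptpn11 was at 111 CPM in Mettl3-RNP 3, against 78.9 to 84.2 CPM. Nfatc2 was at 41.1 CPM in Pulsed 3, against 100.03 to 106 CPM. Mettl3 was at 11.2 CPM in Pulsed 3, against 24.5 to 26.5 CPM. For all 6 genes, the library of the same number in the other group was also the highest, or the lowest, of its group.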

How the results depend on the processing

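The replicate block decided the calls: without it, 0 members, 0 members past a 1.5-fold change and 0 other pathway genes passed, and the same-number correlation is the ground for the block. DESeq2 called 8 members and 13 other pathway genes, and removeBatchEffect before limma-trend called 19 and 38. With 1 pair left out, members that passed ranged from 0 to 1, those also past 1.5-fold from 0 to 0, and other pathway genes from 0 to 5. These fits had fewer libraries, and other causes were not tested. Pik3cg missed the threshold when no filter was used (adjusted p = 0.0724, its range over all alternatives being 0.000753 to 0.999), while Ptpn6 passed there and with at least 10 counts in every library (adjusted p = 0.0154 and 0.0389). The members that passed under limma-voom, DESeq2 size factors and library size alone were the 4 reported. The median log2 change of the members stayed between 0.03 and 0.10 in all fits, while that of all genes tested was between -0.0248 and 0.0636, the latter with no filter. Pik3r6 did not pass with no filter. Signs turned only for members near 0. Lcp2 went to 0.0177 with library size alone and 0.000436 with no filter. Btk went to 0.00465 under DESeq2, 0.00468 with its size factors, 0.0300 with library size alone and 0.0131 with no filter. Plcg2 went to 0.000494 and Sos1 to 0.00276 with library size alone. With 1 pair left out, Lcp2 ranged from -0.0878 to 0.0604, Btk from -0.0676 to 0.0937, Csk from -0.0519 to 0.0660, Plcg2 from -0.0956 to 0.00203, Shc1 from -0.00393 to 0.0756, Sos1 from -0.140 to 0.0850 and Cblb from -0.0564 to 0.141. With the longest transcript as gene length, the median level of the members was 34.3 in place of 25.1 CPM per kb, since that length is shorter, and ratios between members moved by over 1.5 times in places, as given in the report, with Orai1 to Stim1 in Mettl3-RNP going from 1.18 to 0.635 and Nfatc3 to Nfatc2 from 0.850 to 1.26, while 4 ratios were above 1 in all 8 libraries with either length.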
